A study of Mus musculus with 9 samples.

Results

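The genes described here form the switch that lets a cell leave G1: the D-type cyclins (Ccnd1, Ccnd2, Ccnd3), their kinases (Cdk4, Cdk6), the inhibitors of those kinases (Cdkn1a, Cdkn1b, Cdkn2c, Cdkn2d) and the retinoblastoma gene Rb1, their main substrate. The 10 genes were taken by symbol, and all 10 were found among the 56775 genes of the files and passed the filter on low reads (14793 genes did). RNA was sequenced from macrophages of C57BL/6 mouse bone marrow, grown for 7 days in medium that held 15% L-929 supernatant, the usual source of the macrophage growth factor M-CSF. The 3 groups of 3 libraries were untreated WT cells (0 h), WT cells exposed for 24 h to 20 µg/mL of ox-LDL, the oxidized form of low-density lipoprotein, and MKP5-/- cells exposed in the same way. MKP5, encoded by Dusp10, is a phosphatase that removes phosphate from the stress-activated MAP kinases JNK and p38. The deletion is labelled only as MKP5-/-, with no driver or cell type given, and the labels do not say whether replicates came from separate mice, so p-values measure the spread between these libraries, which may be technical. Untreated cells kept for 24 h and MKP5-/- cells at 0 h were not analysed here, so ox-LDL and additional time in culture cannot be told apart. Nor can a genotype difference already present at 0 h be told apart from a different response to ox-LDL.

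In the general scheme, growth factor signals raise the D-type cyclins, which bind CDK4 or CDK6. The active kinase phosphorylates the RB protein, which then releases E2F transcription factors and with them the genes of DNA synthesis. INK4 proteins (Cdkn2c encodes p18, Cdkn2d p19) bind CDK4 and CDK6 themselves, while the CIP/KIP proteins p21 (Cdkn1a) and p27 (Cdkn1b) block CDK2 complexes and are also held by cyclin D complexes. In bone marrow macrophages M-CSF is the signal that drives the D cyclins and proliferation.

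Levels are given as normalised reads per kilobase of exon and per library size, the antilog of the deposited log2 values, and differences as log2 fold changes. Exon lengths were those of all annotated exons of a gene, so the order of levels between genes is approximate. The 10 genes were measured on 191 to 11323 reads per library, in libraries of 11093479 to 19780073 reads. Dusp10, the deleted gene, was covered by 38 to 48 reads in each WT library and by 4 to 6 reads in each MKP5-/- library, which matches the labels. Replicate 3 of the treated WT cells stood apart over all genes: the chi-square per gene was 9.89 and 9.34 against its fellow replicates and 2.24 to 5.90 in the other pairs within groups. Over 8 macrophage markers the sum was 6958 to 7094 CPM (counts relative to library size) in untreated WT cells. It was 17013 to 19810 in treated WT cells and 11917 to 13518 in MKP5-/- cells. The sum thus differed between groups without overlap, but the single markers were split. Of the 8, 6 were called higher and 2 lower at 24 h in WT, where 55.3% of all genes tested were called. Between genotypes 2 were higher, 3 lower and 3 not called, where 28.6% of all genes were called. Their median log2 fold change between genotypes was 0.12. Markers of other cells moved with the groups: summed over 9 granulocyte markers, CPM went from between 108 and 118 at 0 h to between 0.312 and 0.590 in WT and between 0.366 and 0.730 in MKP5-/- cells at 24 h, where 2 and 4 of the 9 had no read. Over 10 stromal fibroblast markers the sum was 7.39 to 10.4 in untreated WT cells, 103 to 125 in treated WT cells and 15.4 to 32.8 in MKP5-/- cells, with 6 of the 8 tested markers higher at 24 h in WT and 6 lower in MKP5-/- than in treated WT cells. The collagen gene Col1a1 had mean levels of 0.0608, 5.53 and 0.706 in the 3 groups, and Dcn, Lum and Pdgfra at most 0.11 in any. Over 5 osteoclast markers the sum was 23.0 to 26.7, 124 to 186 and 374 to 469. The part of these cells in the results was not tested, and in bulk RNA fewer cells of a type and less RNA per cell cannot be told apart.

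In untreated WT macrophages Ccnd1 was the most abundant of the 10 transcripts, at 119.5 ± 5.16 (SD, n = 3). It was followed without overlap between libraries by Cdkn1a, Cdk4, Cdkn2d, Cdkn2c, Cdk6 and Ccnd2, and Ccnd3 came last at 8.10 ± 0.509. After 24 h with ox-LDL the order in WT cells was led by inhibitors instead: Cdkn1a stood at 56.4 ± 3.13, Cdkn2c at 39.1 ± 8.09 and Cdkn1b at 26.4 ± 2.73, and Ccnd1 took the sixth place at 14.9 ± 2.45, overlapping with its neighbours Cdkn2d and Rb1. In MKP5-/- cells Cdkn1a remained the most abundant at 44.2 ± 3.68 and Ccnd1 was the second at 34.2 ± 1.94, ahead of Cdkn2c and Cdk4, whose libraries overlapped. Ccnd2 was the least abundant of the 10 in both groups at 24 h.

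**Figure D1:**
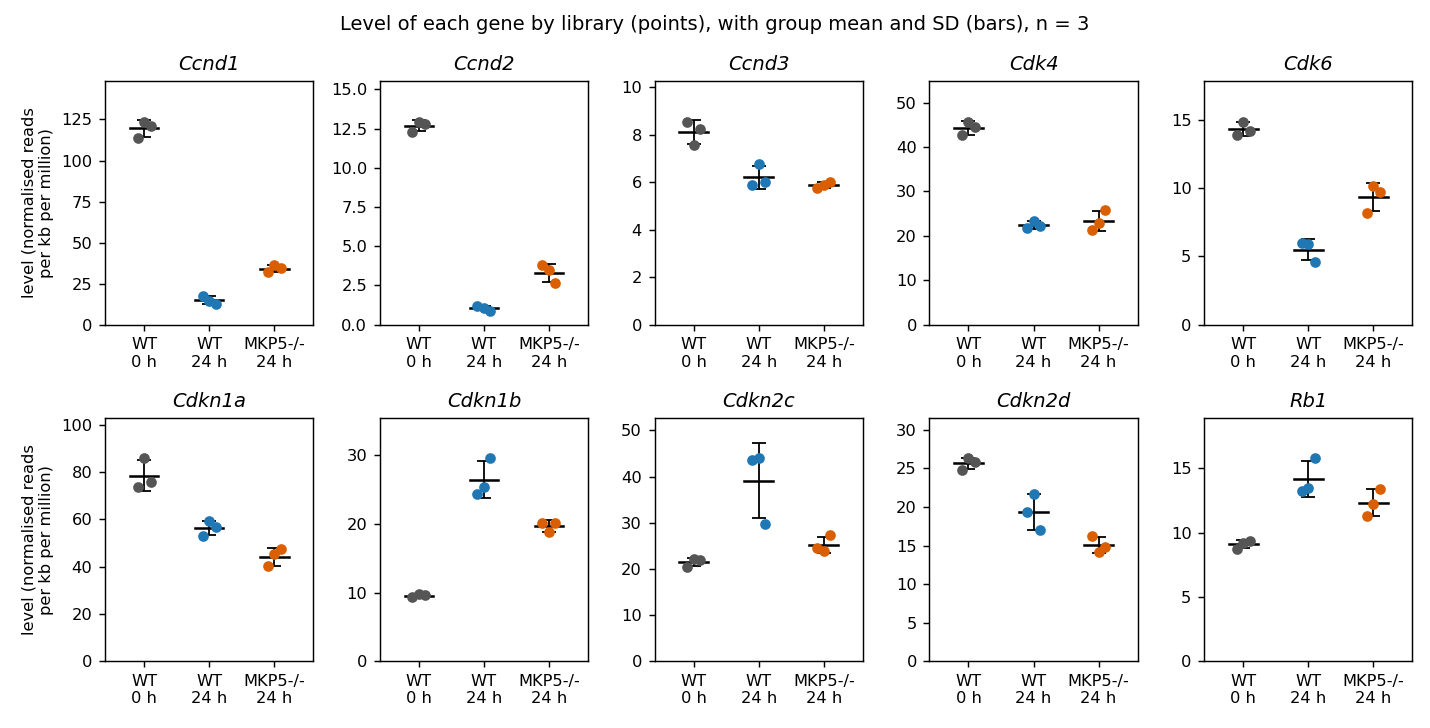
Level of each of the 10 genes (normalised reads per kilobase, linear axis from 0) in WT at 0 h (grey), WT after 24 h with ox-LDL (blue) and MKP5-/- after 24 h with ox-LDL (orange); points are libraries, bars the mean and SD of 3. Ccnd1, Ccnd2, Cdk6, Cdkn1b and Cdkn2c in MKP5-/- cells lie between both WT groups, whereas Cdk4 and Ccnd3 in MKP5-/- cells overlap with WT at 24 h.

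The first comparison asked what 24 h with ox-LDL changed in WT cells. All 10 genes passed the test, 7 lower and 3 higher, where 55.3% of the 14793 genes tested were called in either direction, 28% lower and 27.4% higher (limma, Benjamini-Hochberg adjusted p below 0.05). The groups did not overlap in any of the 10, and neither did they in 64% of all genes tested, 32.3% lower and 31.8% higher. Their median log2 fold change was -0.45, against 0.01 over all genes tested. The D cyclins and both kinases fell, the inhibitors were split between rises and falls, and Rb1 rose.

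Ccnd1, the D cyclin best known as a target of growth factor signalling, stood at 114, 124 and 121 in the WT libraries at 0 h and at 17.5, 14.7 and 12.6 at 24 h. It fell 8.08-fold (log2 fold change -3.01, SE 0.10, adjusted p = 3.28e-09), with a wide gap between the groups. Ccnd2, a second D cyclin that takes part in the proliferation of many blood cells, stood at 12.3, 12.9 and 12.8 at 0 h and at 1.17, 1.08 and 0.902 at 24 h. Its fall was 12.2-fold (-3.60, SE 0.14, adjusted p = 5.61e-09). By their p-values Ccnd1 ranked 49 and Ccnd2 ranked 80 among the genes tested. Ccnd3, the remaining D cyclin, behaved less steeply: its libraries stood at 8.54, 7.55 and 8.22 at 0 h and at 5.88, 6.77 and 5.99 at 24 h, a 1.31-fold fall without overlap (-0.38, SE 0.08, adjusted p = 0.00133). Part of the Ccnd3 exons lies opposite Bysl, a ribosome assembly gene that fell by 1.56 on the log2 scale. Since the use of strand in counting is not given in the sources used here, reads of such overlapping pairs may have been shared. The overlap covers 4.1% of the Ccnd3 exon bases. For Ccnd1 it is 23.4% of the exon bases with LTO1, which did not pass the test in either comparison (log2 fold change 0.20 with adjusted p = 0.111 at 24 h, and 0.00 with adjusted p = 0.977 between genotypes).

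The kinases fell too. Cdk4 stood at 42.7, 45.7 and 44.5 at 0 h and at 21.7, 23.4 and 22.2 at 24 h, a 1.98-fold fall (-0.98, SE 0.07, adjusted p = 4.28e-07). Cdk6, the kinase that shares the D cyclins with Cdk4 and is prominent in blood cells, stood at 13.9, 14.9 and 14.2 and then at 6.01, 5.88 and 4.61, a 2.62-fold fall (-1.39, SE 0.11, adjusted p = 1.00e-06). In both genes the groups lay well apart. Tspan31, which overlaps 19.7% of the Cdk4 exon bases on the opposite strand, fell by 0.26.

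Among the CIP/KIP inhibitors the directions differed. Cdkn1b, which encodes p27, the inhibitor that accumulates in quiescent cells, stood at 9.31, 9.79 and 9.60 at 0 h and at 24.3, 25.4 and 29.5 at 24 h. It rose 2.75-fold (1.46, SE 0.07, adjusted p = 3.33e-08). Cdkn1a, which encodes p21 and is a classical p53 target, stood at 73.5, 85.8 and 75.9 and then at 53.01, 59.2 and 57.0, a 1.39-fold fall without overlap (-0.47, SE 0.08, adjusted p = 0.000258). Levels of Cdkn1a nevertheless stayed above those of Cdkn1b in every library.

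The INK4 pair moved in opposite directions as well. Cdkn2c stood at 20.4, 22.2 and 21.9 at 0 h and at 43.6, 44.0 and 29.8 at 24 h, so that replicate 3 of the treated WT cells lay far below its fellows but above all libraries at 0 h. The rise was 1.79-fold (0.84, SE 0.13, adjusted p = 0.000245), and without that library the log2 fold change was 1.03. Cdkn2d stood at 24.8, 26.3 and 25.8 and then at 19.3, 21.7 and 17.0, a 1.33-fold fall (-0.42, SE 0.08, adjusted p = 0.00138). Rb1 rose 1.55-fold, from 8.74, 9.22 and 9.34 to 13.2, 13.5 and 15.8 (0.63, SE 0.08, adjusted p = 6.00e-05). Its exons lie opposite Lpar6 over 6.8% and Rcbtb2 over 8.1% of their bases, and these genes rose by 2.504 and 2.611 on the log2 scale, so the part of shared reads in the rise of Rb1 was not tested.

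**Figure D2:**
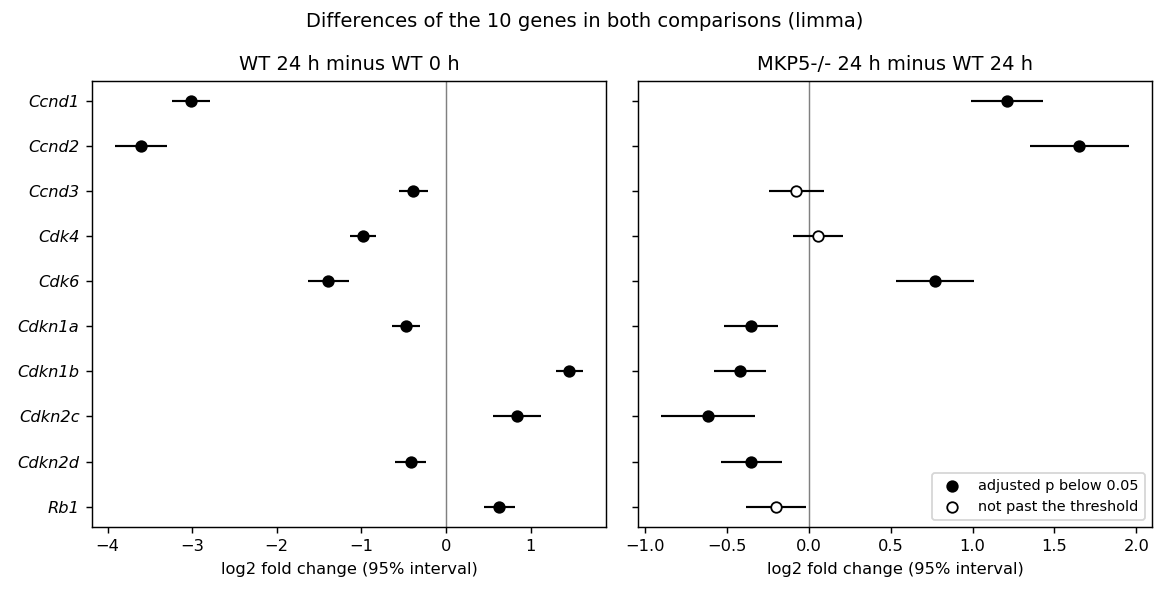
Log2 fold change of each gene with its 95% interval from limma (not adjusted for the number of genes), WT 24 h minus WT 0 h on the left and MKP5-/- minus WT at 24 h on the right; filled points passed an adjusted p of 0.05. Ccnd1, Ccnd2 and Cdk6 lie left of 0 on the left and right of 0 on the right, and the 4 inhibitors lie left of 0 on the right.

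The second comparison asked how treated cells differ without MKP5. Of the 10 genes 7 passed the test, 3 higher and 4 lower in MKP5-/- cells, where 28.6% of all genes tested were called, 11.8% higher and 16.8% lower. The groups did not overlap in those 7, nor in 44.9% of all genes tested, 18.6% higher and 26.3% lower. The 3 higher genes were Ccnd1, Ccnd2 and Cdk6, and the 4 lower ones were the 4 inhibitors. Both comparisons share the WT libraries at 24 h, so their values are set side by side without a test of their relation. With the log2 values centred on the median of each library, 51.9% of the called genes of all kinds were higher, in place of 41.1%, and the 10 genes kept their calls and directions.

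Ccnd1 stood at 32.2, 36.1 and 34.3 in MKP5-/- cells against 17.5, 14.7 and 12.6 in WT, with no overlap. It was 2.31-fold higher (log2 fold change 1.21, SE 0.10, adjusted p = 2.49e-05), the 85th smallest p-value of the comparison. Ccnd2 stood at 3.81, 3.46 and 2.67 against 1.17, 1.08 and 0.902, 3.14-fold higher (1.65, SE 0.14, adjusted p = 2.18e-05). Cdk6 stood at 8.20, 10.2 and 9.68 against 6.01, 5.88 and 4.61, 1.71-fold higher (0.77, SE 0.11, adjusted p = 0.00058). For these 3 genes every MKP5-/- library lay above every treated WT library and below every library of WT at 0 h. Cdkn1b and Cdkn2c lay between the WT groups as well, above every library of WT at 0 h and below every treated WT library. The share of all genes tested with such a place was not computed.

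The partners of these genes gave other values. Ccnd3 stood at 5.75, 5.88 and 6.01, within the range of treated WT cells, with a log2 difference of -0.08 and a 95% interval of -0.25 to 0.09 (adjusted p = 0.488). Cdk4 stood at 21.4, 22.9 and 25.9, again overlapping with WT, with a difference of 0.06 and an interval of -0.09 to 0.21 (adjusted p = 0.561). The data therefore leave room for differences of these genes up to the ends of those intervals.

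All 4 inhibitors were lower in MKP5-/- cells. Cdkn1b stood at 20.2, 18.7 and 20.1 against 24.3, 25.4 and 29.5 in treated WT cells, 1.34-fold lower (-0.42, SE 0.07, adjusted p = 0.00197). Cdkn1a stood at 40.1, 45.2 and 47.3 against 53.01, 59.2 and 57.0, 1.28-fold lower (-0.35, SE 0.08, adjusted p = 0.00625). Cdkn2d stood at 16.2, 14.2 and 14.9 against 19.3, 21.7 and 17.0, 1.28-fold lower (-0.35, SE 0.08, adjusted p = 0.0111). In each case the genotypes did not overlap, by a narrow margin in Cdkn2d.

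Cdkn2c stood at 24.5, 23.8 and 27.3 against 43.6, 44.0 and 29.8, 1.53-fold lower (-0.61, SE 0.13, adjusted p = 0.00647). The low WT replicate 3 again stood close to the MKP5-/- libraries, and without it the difference was -0.80. Rb1 stood at 11.3, 12.2 and 13.4 against 13.2, 13.5 and 15.8, with 1 MKP5-/- library inside the WT range. Its difference of -0.20 did not pass the test (SE 0.08, adjusted p = 0.0931). Of the genes opposite its exons, Rcbtb2 was lower in MKP5-/- cells (-0.46, adjusted p = 0.000504) and Lpar6 higher (0.34, adjusted p = 0.0234).

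Set against untreated WT cells, MKP5-/- cells at 24 h still had far less D cyclin transcript. In this contrast, in which genotype, treatment and time change together and with the same WT libraries at 0 h as in the first comparison, 9 of the 10 genes passed, 7 lower and 2 higher, where 56.2% of all genes tested were called, 31.2% lower and 24.9% higher. The groups did not overlap in any of the 10, and neither did they in 63.3% of all genes tested, 34.7% lower and 28.5% higher. Among all called genes 44.4% were higher, and 56.4% with median centring. Ccnd1 was 3.50-fold lower (-1.81, SE 0.10), Ccnd2 3.87-fold lower (-1.95, SE 0.14), Cdk4 1.90-fold lower (-0.92, SE 0.07) and Cdk6 1.54-fold lower (-0.62, SE 0.11). Ccnd3 (-0.46), Cdkn1a (-0.83) and Cdkn2d (-0.77) were lower too. Cdkn1b was 2.06-fold higher (1.04, SE 0.07) and Rb1 1.35-fold higher (0.43, SE 0.08). Cdkn2c, at 25.2 ± 1.83 against 21.5 ± 0.916, was higher in each library but did not pass the test (0.23, SE 0.13, adjusted p = 0.157).

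Because these genes moved unequally, the make-up of the D cyclins, the kinase pair and the inhibitor pairs differed between groups. With 3 libraries against 3, the exact permutation test (two-sided) cannot give a p below 0.10, so no difference of a share can pass 0.05, and the spread is given instead. Ccnd1 made up 85.2 ± 0.638% of the summed D cyclin level in WT at 0 h, 67.0 ± 3.69% in WT at 24 h and 78.8 ± 1.47% in MKP5-/- cells (SD, n = 3). Ccnd3 made up 5.79 ± 0.556%, 28.2 ± 3.73% and 13.6 ± 0.541%, and Ccnd2 9.04 ± 0.086%, 4.72 ± 0.0798% and 7.64 ± 1.46%. Groups did not overlap in any of these shares between WT at 0 h and 24 h or between genotypes (exact permutation p = 0.1 for each). In the sum of Cdk4 and Cdk6, Cdk4 accounted for 75.6 ± 0.195%, 80.3 ± 2.27% and 71.4 ± 1.93%.

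In the CIP/KIP pair Cdkn1a accounted for 89.1 ± 0.57% at 0 h and 68.1 ± 2.08% at 24 h in WT, a change larger than the spread. The pair leaves out the remaining CIP/KIP gene Cdkn1c, which fell steeply at 24 h in WT (log2 fold change -4.14). The change is therefore one within the pair and not within the whole CIP/KIP family. In MKP5-/- cells the Cdkn1a share of the pair was 69.1 ± 2.25%. Its difference from treated WT cells of 0.976 percentage points lies within the spread (exact permutation p = 0.5). Cdkn2c made up 45.6 ± 0.389% of the INK4 pair at 0 h, 66.7 ± 2.82% in treated WT cells and 62.5 ± 2.24% in MKP5-/- cells (exact permutation p = 0.2 between genotypes). The summed level of the 3 D cyclins was 140.3 ± 5.05, 22.2 ± 2.54 and 43.4 ± 1.85 in the 3 groups, and that of the 4 inhibitors 135.1 ± 8.14, 141.2 ± 8.53 and 104.1 ± 4.70. The ratio of the first sum to the second was 1.04 ± 0.0346, 0.157 ± 0.0155 and 0.417 ± 0.0268, with no overlap between groups. The inhibitor genes Cdkn1c, Cdkn2a and Cdkn2b, described below, are in neither the pairs nor the inhibitor sum. The shares, the sum and the ratio therefore hold for the 4 inhibitors used here and not for all CDK inhibitors. Between WT at 0 h and 24 h the summed inhibitor level had overlapping values (exact permutation p = 0.4).

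Promoter sequences of 7 of the 10 genes were found in the RefSeq table (GRCm38.p6), in 10 entries since some genes have more than 1 start. Ccnd1, Ccnd2 and Rb1 had no entry. The 250 bases before each start were searched on both strands for 6 motifs: the E-box CACGTG bound by MYC and related factors, the AP-1 site TGANTCA, the GC box GGGCGG, the E2F sites TTTCGCGC, TTTGGCGC, TTTCCCGC and TTTGCCGC, the core of the p53 element CATGNNNNNNCATG, and the CCAAT box. No letters of one motif are contained in another, and a match is a description of the letters, not a bound site. Entries of Ccnd3, Cdkn2c and Cdkn2d, whose levels also differed in the comparisons above, are not printed, nor is the other Cdkn1a start. The windows below belong to 2 kinases that fell and to the CIP/KIP pair that moved apart. They lie at chr10:127063285-127063534 (Cdk4), chr5:3343643-3343892 (Cdk6), chr17:29090729-29090978 (Cdkn1a, the start farther upstream) and chr6:134920151-134920400 (Cdkn1b), all on the + strand, 5′ to 3′, with motif matches in capitals.
Cdk4: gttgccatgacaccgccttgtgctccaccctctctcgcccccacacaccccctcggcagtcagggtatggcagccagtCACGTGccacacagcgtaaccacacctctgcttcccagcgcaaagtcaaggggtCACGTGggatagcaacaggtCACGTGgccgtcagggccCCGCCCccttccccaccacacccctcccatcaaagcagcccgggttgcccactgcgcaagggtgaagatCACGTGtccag
Cdk6: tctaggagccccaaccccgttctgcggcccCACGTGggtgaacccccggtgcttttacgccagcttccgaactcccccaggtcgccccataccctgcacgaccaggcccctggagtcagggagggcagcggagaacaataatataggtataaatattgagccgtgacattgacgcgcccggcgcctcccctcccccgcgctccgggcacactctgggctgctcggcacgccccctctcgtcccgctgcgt
Cdkn1a: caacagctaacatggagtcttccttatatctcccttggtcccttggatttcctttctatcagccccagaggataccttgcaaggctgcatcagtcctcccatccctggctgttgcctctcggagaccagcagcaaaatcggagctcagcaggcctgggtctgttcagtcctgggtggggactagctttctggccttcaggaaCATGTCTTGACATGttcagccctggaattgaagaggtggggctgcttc
Cdkn1b: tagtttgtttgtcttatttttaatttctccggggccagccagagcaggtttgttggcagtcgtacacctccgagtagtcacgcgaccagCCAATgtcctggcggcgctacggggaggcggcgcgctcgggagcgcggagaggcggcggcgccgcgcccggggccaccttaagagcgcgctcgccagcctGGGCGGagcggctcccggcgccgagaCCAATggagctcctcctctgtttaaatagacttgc

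The Cdk4 window held 4 E-boxes and a GC box. An E-box was present in 6% of the 32851 windows of this length, and 7 of them had 4 or more. Cdk6 had 1 E-box. The upstream Cdkn1a window held 1 p53 core, which 0.5% of all windows have, while the window of the other Cdkn1a start held 0 and had 2 GC boxes. The Cdkn1b window held a GC box and 2 CCAAT boxes, which stand in 32.7% and 33.8% of windows. No AP-1 or E2F letters were found in any of the 10 entries; 6.7% and 1.9% of all windows hold them.

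The genes around the cyclin D step were described with 10 lists of 138 entries, each read beside the background shares above. Among 24 transcription factors known to act on D cyclin or CIP/KIP genes, 21 were tested, and 13 rose and 8 fell at 24 h in WT (median 0.44). Myc, an activator of Ccnd2 and Cdk4, fell from 16.9 to 2.09 on average (-3.01, adjusted p = 3.60e-09). Klf4, an activator of Cdkn1a, fell by 2.73, and Ets2 by 2.97. Foxo3, a known activator of Cdkn1b, rose from 11.2 to 26.7 (1.25). Between genotypes 8 were higher and 6 lower in MKP5-/- cells, but the lower count rested on single libraries: it was 2 without WT 24 h replicate 2 or 3 (7 higher) and 2 without MKP5-/- replicate 1 (8 higher), and 2 to 7 over all alternatives. Myc was higher by 1.64 at 6.52 (adjusted p = 5.78e-06), and the AP-1 genes Fos and Jund by 1.18 and 0.63. Klf4 was higher by 1.23, while Foxo3 was lower, with a log2 fold change of -0.26, a call lost without any one of those 3 libraries and in 7 of 20 alternatives.

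Downstream of the switch, E2F target genes of DNA synthesis fell in 17 of 20 cases at 24 h in WT, with a median of -0.998, and 1 rose (Tk1, 0.44, adjusted p = 0.0478, a call lost in 12 of 20 alternatives, among them leaving out any one library of WT at 0 h, WT 24 h replicate 1 or 2, or MKP5-/- replicate 1). The replicative helicase gene Mcm2 fell from 14.8 to 4.02 (-1.90), Cdt1, which loads the helicase, by 1.44, and the sliding clamp gene Pcna from 145.3 to 64.2 (-1.20). In MKP5-/- cells 12 of the 20 were higher than in treated WT cells and none lower, with a median of 0.44: Pcna stood at 126.4 (0.99, adjusted p = 0.000219) and Mcm2 at 7.55 (0.93), and Cdt1 was higher by 0.74. At an unadjusted p below 0.05 limma gave 0 lower genes in this list and limma-voom, with adjustment, 0. Summed over the list, the level was 422, 429 and 425 in untreated WT cells and 254, 223 and 164 in treated WT cells. In MKP5-/- cells it was 327, 338 and 337, so the sums of the 3 groups did not overlap. Abundant genes weigh most in such a sum, and Pcna alone had means of 145.3, 64.2 and 126.4 in the 3 groups.

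Genes of G2 and mitosis went the other way. Of 20, 17 rose at 24 h in WT and none fell by limma (0 at an unadjusted p below 0.05, and 0 by limma-voom), with a median of 0.69, among them the cyclin Ccnb2 (29.4 to 72.7, 1.30) and the mitotic kinesin Kif20a (1.24). In MKP5-/- cells 19 were lower than in treated WT cells (median -0.73), with Ccnb2 at 30.2 (-1.27, adjusted p = 7.48e-05) and Ccnb1 at 10.2 (-1.01). Over the 20 alternatives 17 to 20 were lower. The calls of Aurkb and Foxm1 were each lost in 5, among them without replicate 1 or 2 of either genotype at 24 h. The summed level was 316, 307 and 328 in untreated WT cells, 568, 601 and 442 in treated WT cells and 283, 278 and 344 in MKP5-/- cells. Replicate 3 of the treated WT cells, the library in which Cdkn2c was low, had the lowest sum of its group in both lists. Without it 17 of the E2F target genes fell and 20 of the mitosis genes rose at 24 h, and 11 and 0 were higher and 1 and 20 lower in MKP5-/- cells.

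The next step of the cell cycle is run by cyclin E, cyclin A and CDK2. The 7 genes listed for it were split along the same line, but not all of them are particular to that step. Ccne1 (-1.56), Ccne2 (-1.24) and the CDK2-activating phosphatase Cdc25a (-1.51) fell at 24 h in WT with Cdk2 itself (-0.23), whereas Ccna2 (0.59), Cdc25b (0.29) and Cdc25c (0.61) rose. The calls of Cdk2 and Cdc25b at 24 h were each lost in 8 of 20 alternatives, Cdk2 without replicate 1 or 3 of either WT group and Cdc25b without any one library at 0 h or without WT 24 h replicate 1 or 2. In MKP5-/- cells Ccne1 (1.13), Ccne2 (0.73) and Cdc25a (0.58) were higher and Ccna2 (-0.72), Cdc25b (-0.76) and Cdc25c (-1.06) lower. Of 12 pocket protein, E2F and DP genes 8 fell and 2 rose at 24 h: E2f1 fell from 21.4 to 12.2 (-0.82), and Rbl2, the pocket protein p130 of quiescent cells, rose from 6.49 to 12.9 (0.99) along with Tfdp2 (1.11). Between genotypes E2f1 was higher by 0.44 in MKP5-/- cells, and Rbl2 (-0.35) and E2f2 (-0.40) were lower. The call of E2f2 was lost in 7 of 20 alternatives, among them without WT 24 h replicate 1 or 2 and without MKP5-/- replicate 2 or 3.

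The other CDK inhibitors had large differences of their own. Cdkn1c, which encodes the CIP/KIP protein p57, fell from 25.1 to 1.45 at 24 h in WT (-4.14, adjusted p = 2.37e-08). In MKP5-/- cells it was lower than in WT at 0 h by 3.61. Between genotypes at 24 h Cdkn1c did not pass the test. It was higher in MKP5-/- cells at an unadjusted p below 0.05 by limma, and was called higher in some alternatives. Cdkn2a rose from 2.03 to 8.51 (2.10, adjusted p = 3.08e-06), a gene value that joins the transcripts of p16 and ARF, and was lower in MKP5-/- cells at 5.28 (-0.70), a call lost without WT 24 h replicate 2 or MKP5-/- replicate 1. Cdkn2b, which encodes the INK4 protein p15, did not pass the test at 24 h (-0.16, adjusted p = 0.589) but stood at 5.77 in MKP5-/- cells against 1.69 in treated WT cells (1.81, adjusted p = 0.00029). Cdkn3, a phosphatase of CDK2, rose by 0.49 and was lower in MKP5-/- cells, with a log2 fold change of -1.85.

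Of 19 tested p53 target genes beside Cdkn1a, 9 fell and 7 rose at 24 h in WT (median 0.21), with Gdf15 at -4.69, Plk2 at -2.21, Plk3 at -2.34 and Sesn1 at 1.99. In MKP5-/- cells 12 were lower and 4 higher (median -0.29, against -0.05 over all genes tested), with Trp53inp1 at -1.06, Bbc3 at -0.48, Plk2 at 1.53 and Tnfrsf10b at 2.01. Of 14 genes for cyclin D and p27 turnover, 2 rose and 4 fell at 24 h, and 1 was higher and 3 lower between genotypes, where 55.3% and 28.6% of all genes tested were called. The balance at 24 h turned with scaling, to 3 and 2 with median centring and 5 and 2 with upper-quartile scaling, and the lower count at 24 h was 2 without WT 0 h replicate 2 or 3 or without WT 24 h replicate 3. Between genotypes the counts were 0 and 1 without WT 24 h replicate 2 or 3 or without MKP5-/- replicate 2. Skp2, the F-box protein that marks p27 for degradation, had mean levels of 2.69, 2.32 and 2.23 in the 3 groups and passed neither test (adjusted p = 0.203 and 0.834). Among 14 genes of the CDK-activating kinase and other CDKs 3 rose and 5 fell at 24 h, and Cdk14 and Cdk18 were the 2 higher in MKP5-/- cells (0.76 and 0.82), with 2 lower. Of the M-CSF receptor and ligand genes, Csf1r rose from 194.6 to 564.9 (1.53) and was lower in MKP5-/- cells (-0.31), Csf1 fell by 2.91, and Il34 passed neither test.

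**Figure D3:**
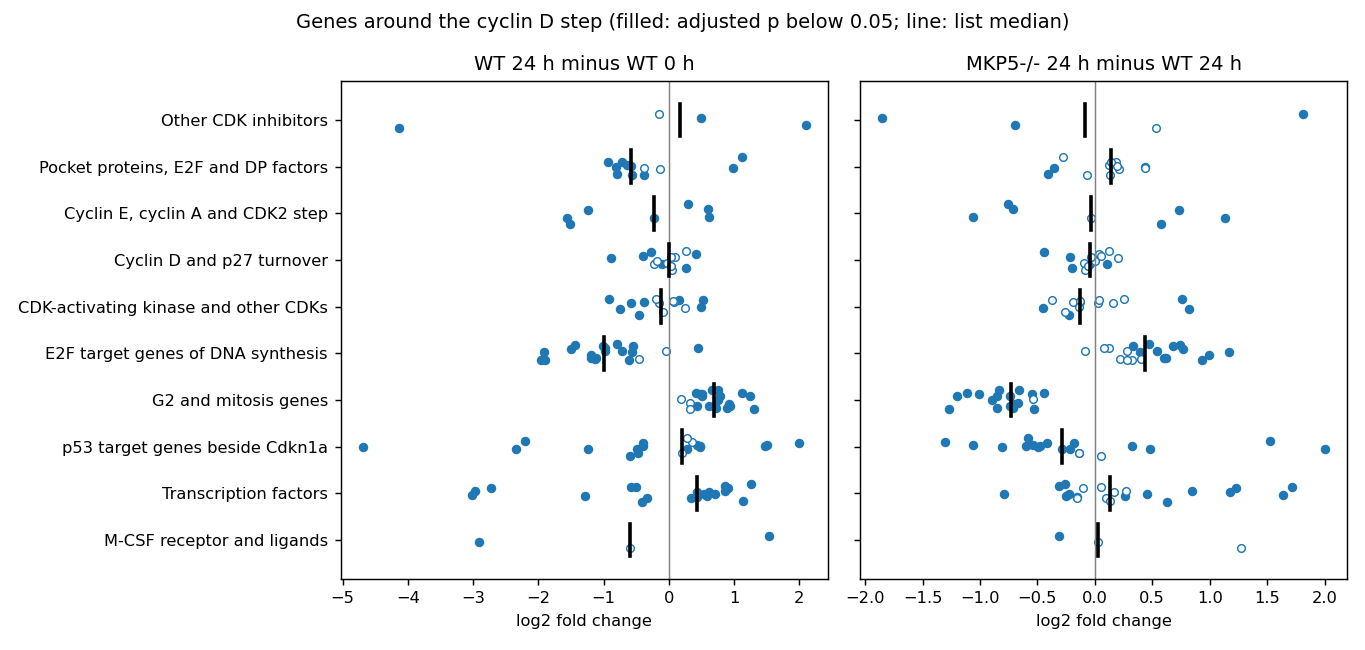
Log2 fold change of every tested gene in the 10 lists around the cyclin D step, WT 24 h minus WT 0 h on the left and MKP5-/- minus WT at 24 h on the right; each point is a gene, filled where its adjusted p is below 0.05, and the black line is the list median. The medians of the E2F target list are -0.998 and 0.44, and those of the G2 and mitosis list 0.69 and -0.73.

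The genes whose log2 values followed each D cyclin most closely over the 9 libraries were named as a description, since libraries of a group share their treatment. For Ccnd1 they were the splicing factor gene Srsf7 (Pearson r = 0.998), Cd180 and Hsp90aa1 (0.998 and 0.997), and 587 of 12054 protein-coding genes had an r of at least 0.95. For Ccnd2 they were H2-T23, Pou3f1 and Irf2bpl (0.997, 0.996 and 0.996), with 409 genes at that level. For Ccnd3 they were Sun1, C2cd2l and Gsk3a (0.985, 0.981 and 0.979), with 86 genes. Within the family Ccnd1 and Ccnd2 correlated at 0.992, Ccnd1 and Ccnd3 at 0.789, and Ccnd1 and Cdkn1b at -0.99, all over the same 9 libraries.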

How the data were processed

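RNA-seq was done on 9 libraries in 3 groups of 3, taken from the sample titles. The headers give the same genotype and time. Reads were aligned with STAR to GRCm39, per the submitters' processing notes. How reads were counted, with which annotation and strand setting, is not given in the sources used here. Per the file headers, the deposited values are log2 of normalized counts, with a TMM factor for each library. They equalled log2 of reads plus 0.5, per exon length, plus a library constant: with GENCODE M21 lengths 48063 of 56775 genes, all 10 members among them, came out as whole reads (tolerance from 0.004 reads, wider at high counts), 8262 more did once a length was fitted, and for 447 the reads were too many for the check. M21 and the RefSeq table rest on an earlier assembly than the authors' and served for names, lengths, gene overlaps and promoter windows. Recovered reads ran from 11093479 to 19780073 per library. No table held columns of other samples.

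Count tests were foreseen if counts had been deposited. As the values are log2, limma 3.58.1 (R 4.3.3, statmod 1.5.0) was used on them: a mean per group over all 9 libraries, trend and robust options, two-sided, Benjamini-Hochberg over all 14793 genes kept (10 or more reads, at median depth, in 3 libraries and 15 in all). The threshold was 0.05 with no minimum fold. The model was tested on simulated data. Shares and ratios were compared with exact permutation tests. Other genes were named as up to 4 called members with the smallest p per list, with further list members named after their values were seen, and the 3 closest genes per D cyclin. The members, lists and tests were chosen with earlier results of these data known. Replicates differed by more than counting noise in every pair, WT 24 h replicate 3 most. Figures used Python 3.11.15 and matplotlib 3.10.9.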

Additional observations from a re-analysis of the deposited data

How the results depend on the processing

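Members and genes called were recomputed under 20 alternatives, of which limma-voom on recovered reads was chosen after seeing the data. The planned quasi-likelihood and DESeq2 fits on recovered reads were not run; limma-voom took their place. All 10 members were called at 24 h in WT under each alternative, 7 to 8 between genotypes and 9 to 10 against WT at 0 h. Calls over all genes ranged from 7397 to 8534, from 2823 to 4683 and from 7151 to 8456 in these comparisons, within 1.5 times the reported counts. Of 600 recomputed member values 592 kept direction and side of the threshold, and none lost a call. Cdk4 between genotypes, not called, turned to -0.018 without MKP5-/- replicate 3. Rb1 between genotypes gained a call with limma-voom (adjusted p = 0.0467), without MKP5-/- replicate 3 (0.0471) and with the replicate block (0.0363); Cdkn2c against WT at 0 h gained one with median centring (0.0398), upper-quartile scaling (0.0316), only those groups in the fit (0.0154) and without WT 24 h replicate 3 (0.00847). The cause was not tested. Same-numbered libraries correlated at -0.02 to 0.19 in their deviations from the group means, and libraries of different number at -0.168 to 0.122. With 3 libraries a group, these values cannot decide whether the numbers pair the samples. The replicate block gave 8234, 4382 and 8456 calls over all genes and 8 members between genotypes. Against WT at 0 h, 56.4% of calls were higher with median centring and 58.3% with upper-quartile scaling, in place of 44.4%; these shifted the median gene by 0.12 and 0.14, and no member changed direction.

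Per-length levels decide the size of shares. From library-size-scaled reads not divided by length, the change at 24 h in WT was -22.7 percentage points for Ccnd1, -8.54 for Ccnd2, 31.2 for Ccnd3 and -23.9 for Cdkn1a, and the difference between genotypes was 5.47 for Ccnd2, -19.5 for Ccnd3 and -12.0 for Cdk4. The ratio of D cyclins to inhibitors then differed by -1.50 at 24 h and 0.427 between genotypes, against -0.883 and 0.26. With 1 library left out, the Cdkn1a share of the CIP/KIP pair differed between genotypes by -0.151 to 2.27 percentage points, below 0 without WT 24 h replicate 3. With 3 libraries a group the exact permutation test used for shares cannot go below 0.1.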
